A study of Mus musculus with 12 samples.

Results

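Myeloid surface receptors and macrophage markers were examined in the left ventricle of mice after 3 days of AngII/PE or NaCl infusion. Members were chosen by symbol: the Fcgr, Clec, Ms4a, Trem, Siglec, Lilr, Pir, Mrc and Cd300 families, the single genes Fcer1g, Lair1 and Msr1, and 15 named macrophage, monocyte and neutrophil genes. Of the 3939 genes that the authors listed as changed, 40 met this rule. Being listed was part of the rule, so presence in the list is no result. The direction and size of each change were not part of the rule. The members were, however, chosen with earlier results of these data known, so their shared direction is a description and no independent result. The 6 treated and 6 control libraries came from wild-type C57Bl6J/129X1 hybrid animals, 3 females and 3 males per treatment, all sampled after 3 days as whole left ventricular myocardium. AngII/PE usually stands for angiotensin II, a vasoconstrictor hormone, with phenylephrine, an alpha-1 adrenergic agonist, and NaCl was the control infusion. The labels give neither the doses nor the age of the animals, and do not say whether each library came from its own mouse. The series title presents a mouse model of heart failure in which ejection fraction is preserved. Values of single libraries were not analysed here, hence no replicate values, standard errors or depths can be given, and the tissue label could not be checked against marker levels. Each value below is the authors' own log2 fold change for treated against control, and each adjusted p is theirs, called at 0.05.

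Macrophages of the adult heart comprise long-lived resident cells, often marked by Lyve1, Folr2, Timd4 and Cd163, and cells that arise from blood monocytes, which carry Ccr2 and Ly6c2 on entry. Both kinds sense antibodies, glycans, lipids and dying cells through receptors that carry either activating or inhibitory signals. Most activating receptors have no signalling tail of their own and pair with the adaptors Tyrobp (DAP12) or Fcer1g (the common Fc receptor gamma chain), which recruit the kinase Syk. Inhibitory receptors carry tyrosine motifs that recruit phosphatases such as those encoded by Ptpn6 and Inpp5d.

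Myeloid receptor and macrophage transcripts were higher after AngII/PE in 39 of 40 listed genes (97.5%) and lower in 1, Cd300lg, in the authors' deposited table. Among all 3939 listed genes, 2213 (56.2%) were higher and 1726 (43.8%) lower there. The median of the 39 rises was 1.67 on the log2 scale (3.17-fold) per the authors' deposited table, against 1.06 (2.08-fold) for all listed rises. A log2 fold change of 1 was reached by 36 of the 40 members in the authors' deposited table, and by 30.7% of all genes there. At least 2 was reached by 14 members (35.0%) and by 8.5% of all listed genes. The quartiles of the 39 rises were 1.57 and 2.39 in the authors' deposited table. Whole tissue was sequenced, so more myeloid cells and more RNA per cell cannot be told apart.

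**Figure D1:**
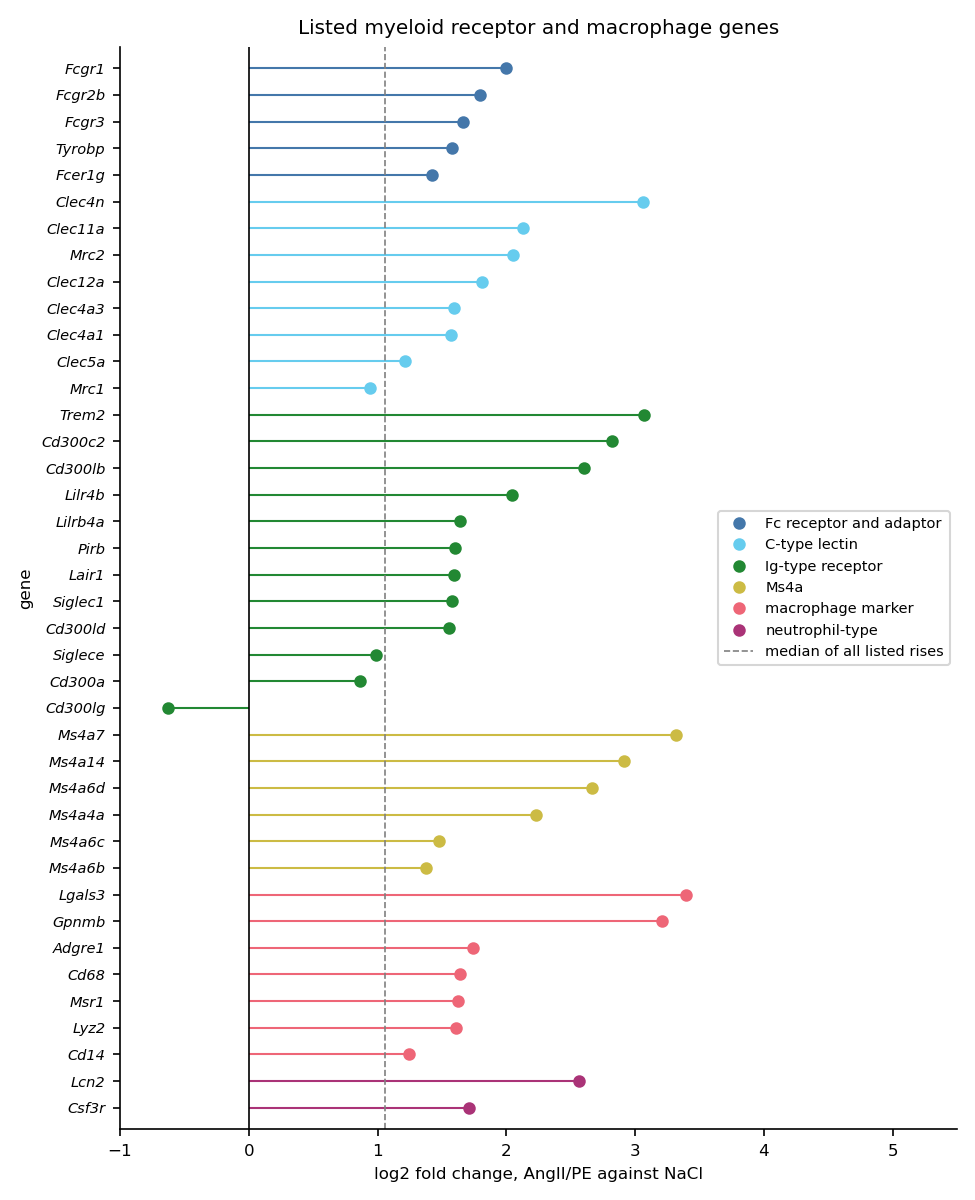
Log2 fold change of AngII/PE against NaCl for each of the 40 listed members, grouped by kind of protein and ordered by size, with the median of all listed rises (1.06) as a dashed line. Lgals3, at 3.40, is the highest point, and Cd300lg, at -0.62, is the only point left of 0.

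**Figure D2:**
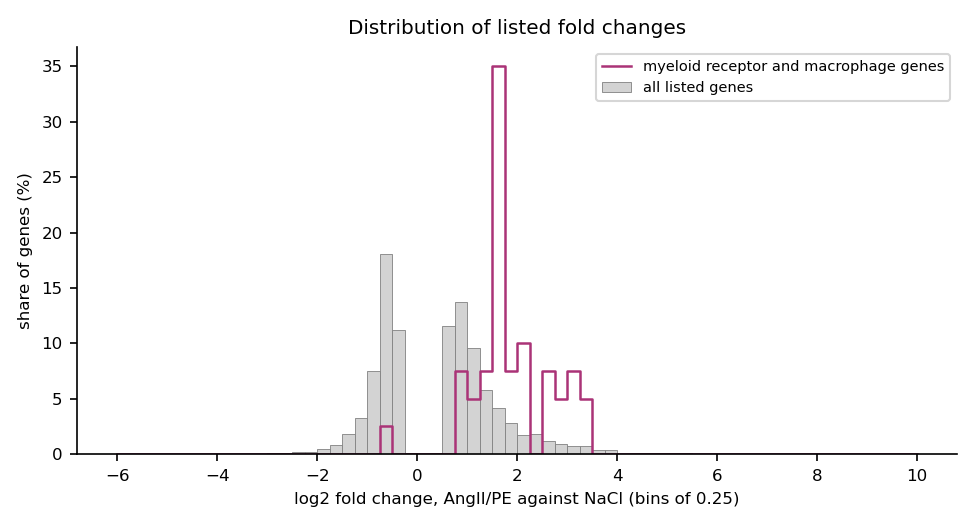
Share of genes (%) in bins of 0.25 on the log2 fold change axis, for all 3939 listed genes (grey bars) and the 40 members (line). The members pile up around their median of 1.65, to the right of the 2 grey humps of listed falls and rises.

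The adaptors and Fc receptors moved within a small range. Fcer1g rose by 1.42 (2.68-fold, adjusted p = 4.93e-40) and Tyrobp by 1.58 (2.99-fold, adjusted p = 2.49e-37) on the log2 scale per the authors' deposited table. Fcgr1, encoding the high-affinity IgG receptor, stood highest of the group at 2.0 (3.99-fold, adjusted p = 8.01e-26) per the authors' deposited table. The inhibitory IgG receptor gene Fcgr2b was at 1.80 and the activating low-affinity Fcgr3 at 1.67 in the authors' deposited table. Both kinds of IgG receptor were thus higher, and the 5 genes of this group spanned 1.42 to 2.0. Fcgr4, the other activating low-affinity receptor gene of the mouse, and Fcgrt, encoding the neonatal Fc receptor, had no value analysed here. Fcgr2b, Fcgr4, Fcgr3 and Fcer1g lie in this order within 274 kb of chromosome 1, from 170960558 to 171234349 in GRCm38.

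C-type lectin receptors bind sugars and other ligands of microbes and damaged cells. Clec4n, encoding dectin-2, an activating receptor for fungal mannans that pairs with Fcer1g, led them at 3.06 (8.37-fold, adjusted p = 4.61e-25) per the authors' deposited table. Clec12a, encoding an inhibitory receptor that recognises uric acid crystals, was at 1.81 (adjusted p = 3.87e-12) per the authors' deposited table. Clec4a3 and Clec4a1, of the dendritic cell immunoreceptor group, were close together at 1.60 and 1.57 in the authors' deposited table. Clec5a, encoding an activating partner of Tyrobp, rose by 1.21 (2.32-fold, adjusted p = 7.15e-04) on the log2 scale per the authors' deposited table. Of 33 annotated protein-coding genes with a Clec number, 6 (18.2%) were listed, all higher, against 15.4% of all protein-coding symbols listed in either direction. The beta-glucan receptor gene Clec7a and the inducible receptor genes Clec4d and Clec4e, the last encoding Mincle, had no value analysed here.

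Mrc2 and Clec11a are known mainly from cells outside the myeloid lineage. Mrc2, encoding the collagen-internalising receptor Endo180 of fibroblasts and other stromal cells, was at 2.05 (4.14-fold), and its adjusted p was listed at exactly 0 in the authors' deposited table. Clec11a, encoding a secreted growth factor for bone and blood progenitors, was at 2.13 (4.36-fold, adjusted p = 1.46e-28) per the authors' deposited table. Mrc1, encoding the mannose receptor CD206 of tissue macrophages, rose less, by 0.94 (1.92-fold, adjusted p = 9.83e-35) on the log2 scale per the authors' deposited table. The difference between Mrc2 and Mrc1 was 1.11 on the log2 scale and was not tested. The fibroblast list beside them had 3 of 8 genes listed, Col1a1 at 3.81, Pi16 at 1.35 and Gsn at -1.65 in the authors' deposited table. Their part in the rises of Mrc2 and Clec11a was not tested.

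Receptors with immunoglobulin-type domains showed the widest spread. Trem2, encoding a Tyrobp-coupled receptor for lipids and lipoproteins, was at 3.07 (8.38-fold, adjusted p = 1.54e-50) per the authors' deposited table. It exceeded its adaptor Tyrobp by 1.49 on the log2 scale there, a difference that was not tested. Trem1, Trem3 and the genes of the Trem-like proteins had no value analysed here. The activating receptor genes Cd300c2 and Cd300lb followed at 2.82 (7.08-fold) and 2.61 (6.09-fold), and Cd300ld was at 1.55 in the authors' deposited table. Cd300a, encoding the inhibitory receptor of the same family, was at 0.86 (1.82-fold, adjusted p = 0.00646) per the authors' deposited table. That adjusted p was the highest of all 40 members.

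The paired receptor genes Lilr4b and Lilrb4a lie side by side on chromosome 10, at 51480612 to 51486329 and 51490898 to 51496613 in GRCm38. Lilr4b, whose product gp49A lacks an inhibitory motif, was at 2.04 (adjusted p = 2.16e-47), and Lilrb4a, encoding the inhibitory gp49B, at 1.64 (adjusted p = 1.42e-18) per the authors' deposited table. Their sequences are alike, so counting may have split reads between them, and the same holds for Pirb, the Ms4a6 genes, Clec4a1 and Clec4a3, the clustered Cd300 genes and Lyz2. Pirb, encoding an inhibitory receptor for class I major histocompatibility molecules, was at 1.60 (adjusted p = 4.80e-24) per the authors' deposited table. Lair1, an inhibitory receptor gene whose product binds collagen, had nearly the same value, 1.60 (adjusted p = 1.46e-16), in the authors' deposited table. Siglec1, encoding sialoadhesin, a sialic acid receptor of macrophages, was at 1.58 (adjusted p = 1.14e-39) per the authors' deposited table. Siglece, an inhibitory sialic acid receptor gene, was lower on the scale at 0.99 (adjusted p = 0.00256) per the authors' deposited table.

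Set side by side by the signal they carry, 8 activating receptor genes had a median log2 fold change of 2.30, from 1.21 for Clec5a to 3.07 for Trem2, in the authors' deposited table. The 7 inhibitory receptor genes had a median of 1.60, from 0.86 for Cd300a to 1.81 for Clec12a, in the authors' deposited table. Of the activating genes 4 reached a log2 fold change of 2, namely Trem2, Clec4n, Cd300c2 and Cd300lb, and of the inhibitory genes 0 did. The other 4 activating genes, Fcgr1, Fcgr3, Cd300ld and Clec5a, lay among or beside the inhibitory values. Of the 8 activating genes, 6 were above Tyrobp and 7 above Fcer1g in the authors' deposited table. These classes were assigned from general knowledge after the values had been seen, and the difference between them was not tested.

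Cd300lg, encoding nepmucin, an adhesion receptor of capillary and lymph node endothelium, was the single member that fell. Its log2 fold change was -0.62 (1.54-fold lower, adjusted p = 1.24e-33) per the authors' deposited table. Unlike the other Cd300 genes it lies apart from their cluster, at 102041511 to 102055617 on chromosome 11 in GRCm38. The endothelial list had 6 of 9 genes listed, all lower, from -0.92 for Cldn5 to -0.45 for Emcn in the authors' deposited table. Of all protein-coding symbols 15.4% were listed, and 43.8% of all listed genes were lower. Kdr was at -0.82, Tie1 at -0.58 and Cdh5 at -0.53 in the authors' deposited table. The median of all listed falls there was -0.63, so a fall of the size of Cd300lg is not particular to endothelial genes. Whether endothelial RNA content accounts for the value of Cd300lg was not tested. Pecam1, Vwf and Clec14a, the endothelial C-type lectin gene, had no value analysed here.

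The Ms4a genes encode small proteins that cross the membrane several times, and several are expressed in macrophages. All 6 listed Ms4a genes were higher, with a median log2 fold change of 2.45 (5.45-fold) in the authors' deposited table, the highest of the receptor groups. Ms4a7 was at 3.32 (9.96-fold, adjusted p = 1.18e-68), Ms4a14 at 2.92 (7.56-fold) and Ms4a6d at 2.67 (6.35-fold) in the authors' deposited table. Ms4a4a followed at 2.23, Ms4a6c at 1.48 and Ms4a6b at 1.37 in the authors' deposited table. The family has 21 protein-coding genes within 679 kb of chromosome 19, from 10962289 to 11640851 in GRCm38. The 6 listed genes all lie in the part with higher coordinates, between Ms4a14 and Ms4a6d, a stretch that also holds Ms4a4b, Ms4a4c and Ms4a4d, which had no value analysed here. Ms4a1, encoding the B cell antigen CD20, and Ms4a2, encoding the mast cell IgE receptor beta chain, lie on either side of that stretch and had no value analysed here.

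The other receptor clusters were listed in part as well. Of 9 Clec4 genes within 368 kb of chromosome 6, Clec4a1, Clec4a3 and Clec4n were listed, and Clec4n is followed by Clec4d and Clec4e without a value analysed here. Of 11 clustered Cd300 genes within 246 kb of chromosome 11, 4 were listed, namely Cd300a, Cd300lb, Cd300ld and Cd300c2. Neighbours thus differed, Cd300a at 0.86 lying next to Cd300lb at 2.61 in the authors' deposited table.

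**Figure D3:**
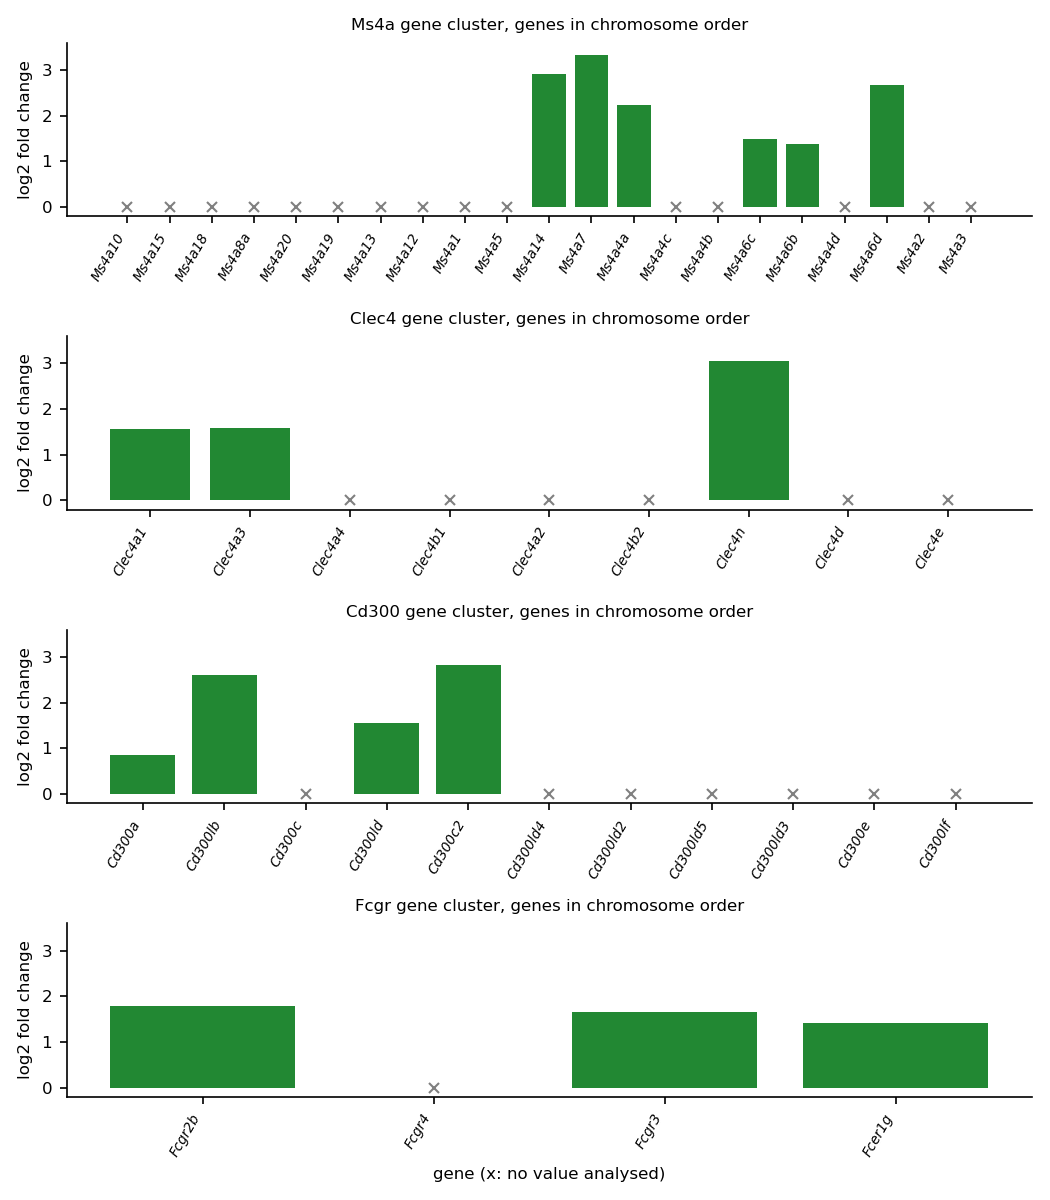
Log2 fold change of the listed genes (bars) in 4 receptor gene clusters, with genes placed in chromosome order and not to scale, and crosses for genes with no value analysed here. In the Ms4a cluster the bars occupy positions 11 to 19 of 21, from Ms4a14 at 2.92 to Ms4a6d at 2.67.

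General macrophage markers were higher as well. Adgre1, encoding F4/80, was at 1.74 (3.35-fold, adjusted p = 3.26e-61) and Cd68, a lysosomal glycoprotein gene, at 1.64 (3.12-fold, adjusted p = 8.55e-44) per the authors' deposited table. Msr1, encoding scavenger receptor A, was at 1.62 and Lyz2, encoding lysozyme, at 1.61 in the authors' deposited table. Cd14, encoding the lipopolysaccharide co-receptor, was lower at 1.24 (2.36-fold, adjusted p = 2.06e-12) per the authors' deposited table. Of a list of 20 general macrophage and leukocyte genes, 20 were listed and all were higher in the authors' deposited table. Their median log2 fold change was 1.45, with a range of 0.74 to 2.37 there. Among all protein-coding symbols 15.4% were listed, and 56.2% of all listed genes were higher. Of the 20 genes, 8 meet the symbol rule, and the list was chosen with earlier results known, so it is no independent comparison. The highest was the lysosomal protease gene Ctss at 2.37, followed by Fcgr1, the integrin gene Itgam at 1.85 and Adgre1 in the authors' deposited table. The lowest was the engulfment receptor gene Mertk at 0.74, and the growth factor receptor gene Csf1r was at 0.79 in the authors' deposited table.

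Markers of resident-type and recruited-type macrophages had different values. Of the 4 resident-type genes in the rule, Mrc1 alone was listed, at 0.94 in the authors' deposited table, and Lyve1, Folr2 and Cd163 had no value analysed here. Of the 9 recruited-type genes in the rule, 3 were listed, all with large rises. For comparison, 15.4% of all protein-coding symbols were listed, and 56.2% of all listed genes were higher. Lgals3, encoding the secreted lectin galectin-3, was at 3.40 (10.5-fold, adjusted p = 1.48e-61) per the authors' deposited table. Gpnmb, a glycoprotein gene of lipid-laden and phagocytic macrophages, was at 3.21 (9.27-fold, adjusted p = 5.54e-33), and Trem2 stood beside it at 3.07 in the authors' deposited table. Ly6c2, Chil3, Arg1, Ms4a4c, Clec4d and Clec4e had no value analysed here, so no change can be stated for these monocyte and activation genes. Lgals3, Gpnmb and Trem2 are also switched on in macrophages after they have settled in tissue, so they do not mark origin alone.

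The wider marker lists contain the genes just described, and their medians are the values of Mrc1 and Gpnmb, so they are no independent comparison. In the resident-type list 5 of 16 genes were listed, all higher, with a median log2 fold change of 0.94 in the authors' deposited table. Vsig4, a complement receptor gene, was at 1.77, the growth factor gene Igf1 at 1.76 and the transcription factor gene Maf at 0.66 in the authors' deposited table. In the recruited-type list 7 of 18 genes were listed, all higher, with a median of 3.21 and a lowest value of 1.99 in the authors' deposited table. The monocyte chemokine receptor gene Ccr2 was at 3.28 (9.73-fold) and Spp1, encoding osteopontin, at 6.71 in the authors' deposited table. Every listed recruited-type value exceeded every listed resident-type value, but most genes of both lists, 11 in each, had no value. Beside both lists, 15.4% of all protein-coding symbols were listed, and 56.2% of all listed genes were higher. The lists were chosen with earlier results of these data known, and the difference between them was not tested. Igf1, Spp1, Vcan, Thbs1 and Lgals3 are also made by stromal cells, whose part was not tested.

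**Figure D4:**
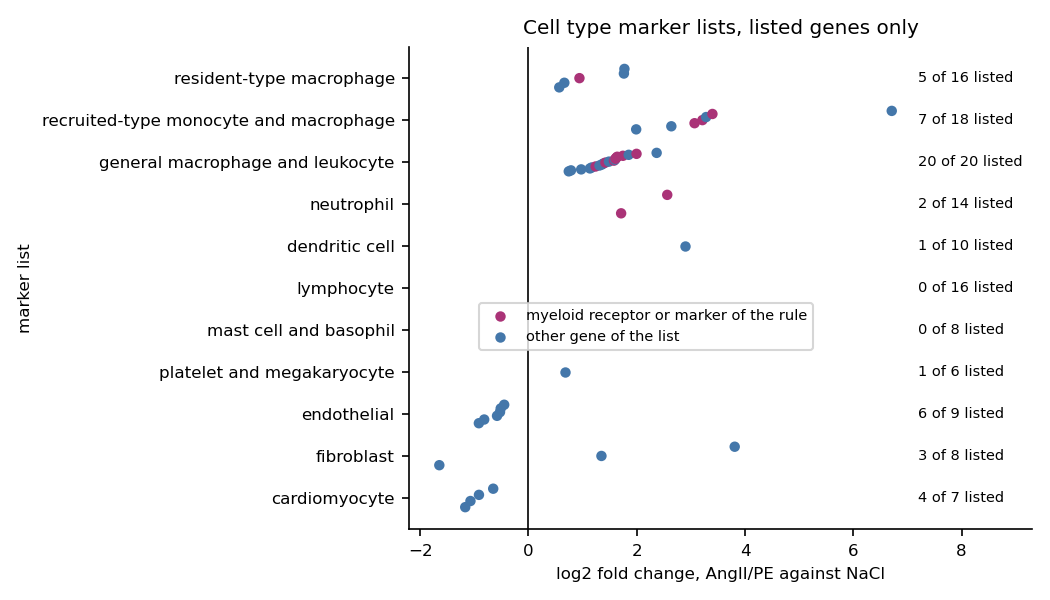
Log2 fold change of the listed genes of 11 marker lists, with the number listed of each list at the right; points in purple meet the symbol rule and points in blue do not. The recruited-type points lie from 1.99 to 6.71, the resident-type points from 0.57 to 1.77, and the endothelial and cardiomyocyte points lie left of 0.

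Markers of other white blood cells were mostly without values. Of all protein-coding symbols 15.4% were listed, so the small counts for neutrophils, dendritic cells and platelets do not set these cell types apart. The neutrophil list had 2 of 14 genes listed, and both meet the symbol rule. Lcn2, encoding the iron-sequestering protein lipocalin-2, was at 2.56 (5.91-fold, adjusted p = 1.20e-19) per the authors' deposited table, and Csf3r, the granulocyte colony-stimulating factor receptor gene, at 1.71 (3.27-fold, adjusted p = 2.20e-19). The neutrophil granule and alarmin genes S100a8, S100a9, Ly6g, Mpo and Elane had no value analysed here. Lcn2 is made by several stressed tissues, and Csf3r is also expressed in monocytes. The dendritic cell list had 1 of 10 genes listed, the integrin gene Itgax, which macrophages express too, at 2.89 in the authors' deposited table. The lymphocyte list had 0 of 16 genes listed, the mast cell and basophil list 0 of 8, and the platelet list 1 of 6, Pf4 at 0.68 in the authors' deposited table. Cardiomyocyte markers, with 4 of 7 listed, were all lower, from -1.17 for Myl2 to -0.65 for Myh6 in the authors' deposited table. Among all listed genes 43.8% were lower there.

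Genes of receptor signalling, in an activating and an inhibitory list, were higher too. Their medians were lower than those of the receptors, a difference that was not tested. Both lists were chosen with earlier results known. Beside them, 15.4% of all protein-coding symbols were listed, and 56.2% of all listed genes were higher. In the activating list 12 of 20 genes were listed, all higher, with a median log2 fold change of 1.22 in the authors' deposited table. The Src family kinase gene Fgr was at 2.52, the exchange factor gene Vav1 at 1.77 and the kinase gene Src at 1.33 in the authors' deposited table. Syk, encoding the kinase that docks on both adaptors, was at 0.97 (1.96-fold, adjusted p = 3.45e-43) per the authors' deposited table. In the inhibitory list 7 of 10 genes were listed, all higher, with a median of 1.01 in the authors' deposited table. That list is not only of downstream genes, since it includes the receptor genes Sirpa at 0.98 and Cd33 at 0.86 there. The 7 genes were led by the docking protein gene Dok1 at 2.29 and the phosphatase gene Ptpn6 at 1.28. Dok3 was at 1.13 and the lipid phosphatase gene Inpp5d at 1.01 in the authors' deposited table.

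Growth factor and transcription factor genes of the myeloid lineage were higher in 11 of 12 listed genes, of 17 in the list, with a median log2 fold change of 0.93 in the authors' deposited table. Runx1, which fibroblasts and cardiomyocytes can also express, was at 2.77 and the cytokine receptor subunit gene Csf2rb at 2.12 in the authors' deposited table. Spi1, encoding PU.1, the transcription factor that drives many myeloid receptor genes, was at 1.44 (2.72-fold, adjusted p = 1.16e-29) per the authors' deposited table. Irf8, a partner of PU.1, was at 1.14 in the authors' deposited table. The exception was Mitf at -0.53, a transcription factor gene used by several cell types, in the authors' deposited table. Among ligands 3 of 12 genes were listed, the lipoprotein genes Clu at 2.81 and Apoe at 0.62, whose products bind Trem2, and Pdpn at 1.30 in the authors' deposited table. For comparison, 15.4% of all protein-coding symbols were listed, and 56.2% of all listed genes were higher. These lists too were chosen with earlier results known.

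The promoters of the members were searched for the letters GAGGAA, the core of many PU.1 sites. Both strands were read, where the other strand reads TTCCTC. RefSeq promoters of GRCm38.p6, each 250 bases before to 50 bases after an annotated start, were found for 30 of the 40 members as 33 promoters, of which 21 begin at the outer end of the annotated gene and 12 at a start inside it. The 10 without an entry were Adgre1, Cd14, Cd300lg, Clec4n, Lilrb4a, Mrc2, Ms4a6d, Msr1, Siglec1 and Tyrobp. The core stood in 21 of the 33 promoters (63.6%), against 28.3% of all 32851 promoters and 28.9% of those of listed rises. Counted by gene, 20 of 30 members (66.7%) had it, against 31.3% of all genes with a promoter and 33.5% of those with listed rises. The longer form GAGGAAGT, which contains the shorter, was in 2 of the 33 (6.1%), those of Pirb and Cd300ld, and in 3.2% of all promoters. The 20 genes with the core had a median log2 fold change of 1.65 and the 10 without it 1.92, with overlapping ranges, in the authors' deposited table. A match of letters is a description and no evidence of binding, and several members are duplicated genes that share promoter sequence. Members were chosen by myeloid family, unlike the sets beside them, and unlisted genes of the same families were not compared. A link between the core and the rises was therefore not tested.

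The 150 bases before the start are printed 5′ to 3′ for 5 members with the core, chosen to span strong and weak rises and both signal types, and for Fcer1g without it, all at the outer end of their gene; capitals mark the core on either strand. They are GRCm38.p6 chr17:48346251-48346400 (plus strand) for Trem2, chr3:96293970-96294119 (minus) for Fcgr1, chr6:40585806-40585955 (minus) for Clec5a, chr7:3720383-3720532 (minus) for Pirb, chr2:14229264-14229413 (plus) for Mrc1 and chr1:171234350-171234499 (minus) for Fcer1g.
Trem2: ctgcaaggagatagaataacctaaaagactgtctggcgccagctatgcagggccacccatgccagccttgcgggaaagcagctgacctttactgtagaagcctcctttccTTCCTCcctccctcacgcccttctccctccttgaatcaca
Fcgr1: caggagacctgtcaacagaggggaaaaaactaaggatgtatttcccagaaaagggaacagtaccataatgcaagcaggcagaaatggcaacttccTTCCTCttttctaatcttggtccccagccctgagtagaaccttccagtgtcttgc
Clec5a: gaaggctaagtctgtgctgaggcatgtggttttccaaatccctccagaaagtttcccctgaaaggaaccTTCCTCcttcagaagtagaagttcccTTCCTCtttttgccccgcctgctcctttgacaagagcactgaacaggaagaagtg
Pirb: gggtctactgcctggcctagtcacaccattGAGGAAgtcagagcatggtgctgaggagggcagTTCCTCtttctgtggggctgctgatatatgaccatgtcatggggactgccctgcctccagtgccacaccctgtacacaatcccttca
Mrc1: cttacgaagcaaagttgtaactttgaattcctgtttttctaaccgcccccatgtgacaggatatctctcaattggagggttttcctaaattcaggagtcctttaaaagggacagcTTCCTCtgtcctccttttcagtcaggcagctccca
Fcer1g: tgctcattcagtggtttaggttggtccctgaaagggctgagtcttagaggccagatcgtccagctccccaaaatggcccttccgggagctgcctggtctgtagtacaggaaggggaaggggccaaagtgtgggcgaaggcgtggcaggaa

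Trem2, at 3.07 in the authors' deposited table, has 1 core 40 bases before its start, and Mrc1, at 0.94 there, has 1 at 35 bases and others at 180 and 167 bases, before the printed stretch. In Fcgr1 the core begins 55 bases before the start, and in Clec5a 1 core begins at the same distance and another at 81 bases. Pirb has cores at 120 and 87 bases within the printed stretch and another at 185 bases, before it.

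**Figure D5:**
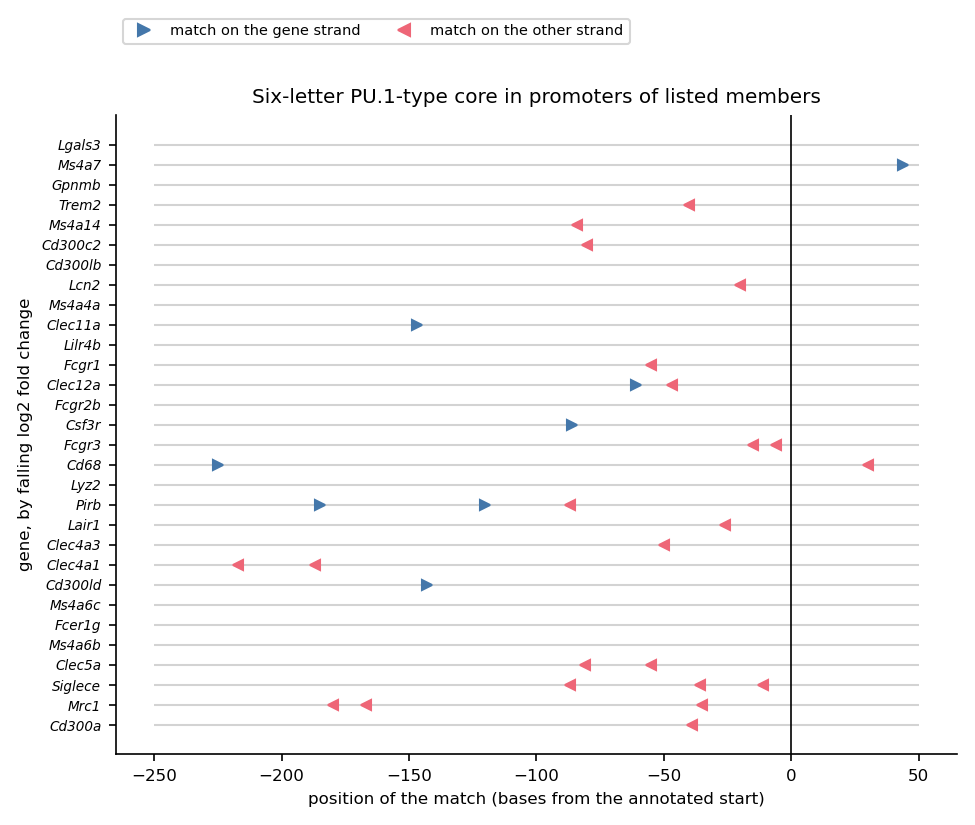
Position of each match to the 6-letter core, in bases from the annotated start, in the promoters of 30 members ordered from the highest to the lowest log2 fold change; arrowheads give the strand. The 20 genes with a match are spread over the whole order, from Ms4a7 at 3.32 to Cd300a at 0.86.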

How the data were processed

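RNA from whole left ventricular myocardium was sequenced in 12 libraries, grouped by the labels' source names into 4 groups of 3. The tools named in the submitters' processing notes are STAR 2.4.2a, cutadapt, featureCounts, Subread and DESeq2, with mouse build mm10; settings and the rule for listing genes were not given in the sources used here. Values were taken from a table deposited by the authors, with a log2 fold change and an adjusted p-value per listed gene, per the file headers. What was averaged, the covariates and the number of genes tested are not given there. Small changes were nearly absent from the list. It held 5 genes from 0.25 to 0.5 on the log2 scale and 455 from 0.5 to 0.75. Among falls it held 3 from -0.25 to 0 and 440 from -0.5 to -0.25. Listed falls thus extended to smaller sizes than most listed rises. The shares higher and lower and the medians over all listed genes depend on this difference. Medians of listed genes thus leave out small changes. For a gene with no value analysed here, no change, small or large, can be stated or denied. No values per library were analysed (columns used: 0), so depth is unknown, and scaling or sex effects could not be examined. If reads were counted without strand, overlapping genes may share them.

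Members were found by symbol, and counts, medians and linear folds were computed with Python 3.11.15 and pandas 2.3.3; no test was run. The promoter search was tested on made-up sequences. A search for signalling motifs in proteins was planned and not run. Gene counts and positions come from RefSeq on GRCm38.p6, the assembly of mm10, where all 40 symbols matched. The table's text description of Lilr4b names another gene and was not used. Members and lists were chosen with earlier results of these data known. Named genes were all members and up to 4 genes per list by absolute log2 fold change; a few more were added with values in view, and 1 list gene is not reported here. Alternatives varied the adjusted p, the size of change, the centring and the membership.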

Additional observations from a re-analysis of the deposited data

How the results depend on the processing

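Across 8 alternative settings, 50 of 56 recomputed values stayed within tolerance of those reported. Tolerance was within 1.5 times for counts, within 0.1 for medians, and inside the exact 95% interval of 86.8% to 99.9% for the share higher. That interval treats the members as independent, though many are similar or neighbouring genes measured in the same libraries, so it served only as a tolerance. Of the values 0 changed direction. None could, because each setting only left out members or subtracted 0.11, and every member changed by more than that. Of these settings, 3 (adjusted p at most 0.01, the reference match and the lists of other cell types, which did not include neutrophils) removed no member, so their 24 values could not change; 26 of the other 32 stayed within tolerance. With changes under 1 on the log2 scale left out, members lower became 0, the share higher 100% and resident-type members higher 0, since Cd300lg and Mrc1 lie below that size. After subtracting the midpoint of the listed edges, 0.11, from every value, the median of members was 1.54. Without Cd300lg, Clec11a, Mrc2 and Lcn2, an alternative chosen after seeing the data, members lower were 0 and the share higher 100%. Another added alternative left out 11 members with close paralogs, and 28 of the remaining 29 were higher, a count still within the wide tolerance of 1.5 times. Leaving out single libraries was not run, because values per library were not analysed. No paired analysis was possible because the result comes from the authors' table and no test was fitted. Depth and replicate error limit every value to an unknown extent.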

Other observations

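Of 95 annotated protein-coding genes in the 12 symbol families of the rule, 31 (32.6%) were listed as changed in the authors' deposited table, against 15.4% of 21900 protein-coding symbols. The share differed between families: 5 of 12 Cd300 genes, 6 of 21 Ms4a genes, 6 of 33 Clec genes and 1 of 6 Trem genes were listed there. The Clec2 genes, whose products are ligands of natural killer cell receptors, had no value analysed here. These shares are descriptions, since family members can be near-identical copies and their levels of expression in the heart were not analysed.

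Mrc1, at 1.92-fold, had an adjusted p of 9.83e-35, and Clec5a, at 2.32-fold, 7.15e-04 in the authors' deposited table. Of the 40 members, 38 had an adjusted p of at most 0.001 there, the exceptions being Cd300a and Siglece.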
